A study of Myzus persicae with 16 samples.

Results

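Transcripts of the green peach aphid Myzus persicae were examined whose ratio of alarm pheromone over solvent moved on the arrays of habituated aphids and stayed small on the arrays of non-habituated aphids. For every contig name on the array, the log2 ratio of aphids exposed to the pheromone (EBF) over solvent-treated aphids was averaged over 4 arrays in each rearing. Among names with a mean under 0.3 in size in non-habituated aphids and of at least 0.3 in habituated aphids, the 150 with the largest mean in habituated aphids were taken. They are 150 of 595 names that met both thresholds, of 7223 names with a signal well above background in both channels of all 8 arrays involved, and of 10489 names on the array. The mean was positive in 80 of them, called the EBF-higher members here, and negative in 70, called the EBF-lower members. These ratios chose the members, so they are given as a description with no test. Ranked by size, the last 2 members, contig978 and contig305, had means of -0.48 and -0.47 on the log2 scale, and the first 2 names left out, contig8662 and contig10005, had 0.47 and -0.47. At the threshold for non-habituated aphids, the nearest members, contig3497 and contig2109, had means of 0.2998 and -0.2992, and the nearest names outside, contig6251 and contig4151, had 0.3007 and 0.3024.

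All aphids were of the red tobacco-adapted strain. Per the labels, they had been reared for at least 6 months, with 16 h of light and 8 h of dark, on Arabidopsis thaliana wild type Col-0 (not habituated) or on 35S:EBFS plants (habituated for EBF). Groups of 50 aphids then received 1 µg of EBF in hexane, or hexane alone, for 30 min, which gives 4 conditions: exposed and solvent-treated aphids of each rearing. RNA of whole aphids was compared on 16 two-colour arrays, with 4 arrays for each of 4 pairs of conditions and the dyes exchanged on 2 of each 4. The labels do not say how many plant lines were used or which arrays share an RNA extract, so the spread between arrays can be partly technical.

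EBF, (E)-beta-farnesene, is the main alarm pheromone of most aphids. It is released in droplets from the cornicles of attacked animals and perceived through the antennae, and neighbouring aphids stop feeding, walk away or drop from the plant. The 35S promoter of cauliflower mosaic virus is active in most plant tissues, so plants with an EBF synthase gene behind it give off the pheromone throughout. Aphids kept under lasting EBF are known to respond to it less, which is called habituation. A change in RNA after a short exposure is one readout of the response besides behaviour.

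The names stand for contigs of an aphid transcript assembly, and 147 of the 150 members carry a contig number. None of the names could be matched to a RefSeq gene (0 matches), so members are given by their name in the files, with no gene, role or genome position. In whole-animal RNA, fewer cells of a type and less RNA per cell cannot be told apart. The arrays of EBF over solvent in non-habituated aphids were on slide 1 and those in habituated aphids on slide 2, so slide and rearing cannot be told apart between these 2 ratios. Median signals were 1464 to 3278 per channel on slide 1 and 814 to 1734 on slide 2. No probe was saturated on slide 1, and on slide 2 between 3.0% and 4.2% of probes were saturated in the red channel.

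In habituated aphids the EBF-higher members had mean log2 ratios of EBF over solvent from 0.48 to 1.03, with a median of 0.58, which is 1.498-fold. The EBF-lower members ran from -1.35 to -0.47, with a median of -0.59, 1.51-fold lower. Only 1 EBF-higher and 6 EBF-lower members were past 2-fold. Over arrays 1 to 4, the median ratio of the EBF-higher members was 0.39, 0.75, 0.18 and 1.12. The same arrays gave -0.20, -1.33, -0.17 and -0.65 for the EBF-lower members. Both sets thus stood farthest from 0 on arrays 2 and 4. The array with the largest value was array 2 for 85 members (56.7%, against 49.5% of all names), array 4 for 58 (38.7%, against 21.4%), array 1 for 5 and array 3 for 2. All 4 arrays had the same sign in 86 of 150 members, 57.3%, against 28.7% of all names; the rule acted on these arrays, so nothing is read from that gap.

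**Figure D1:**
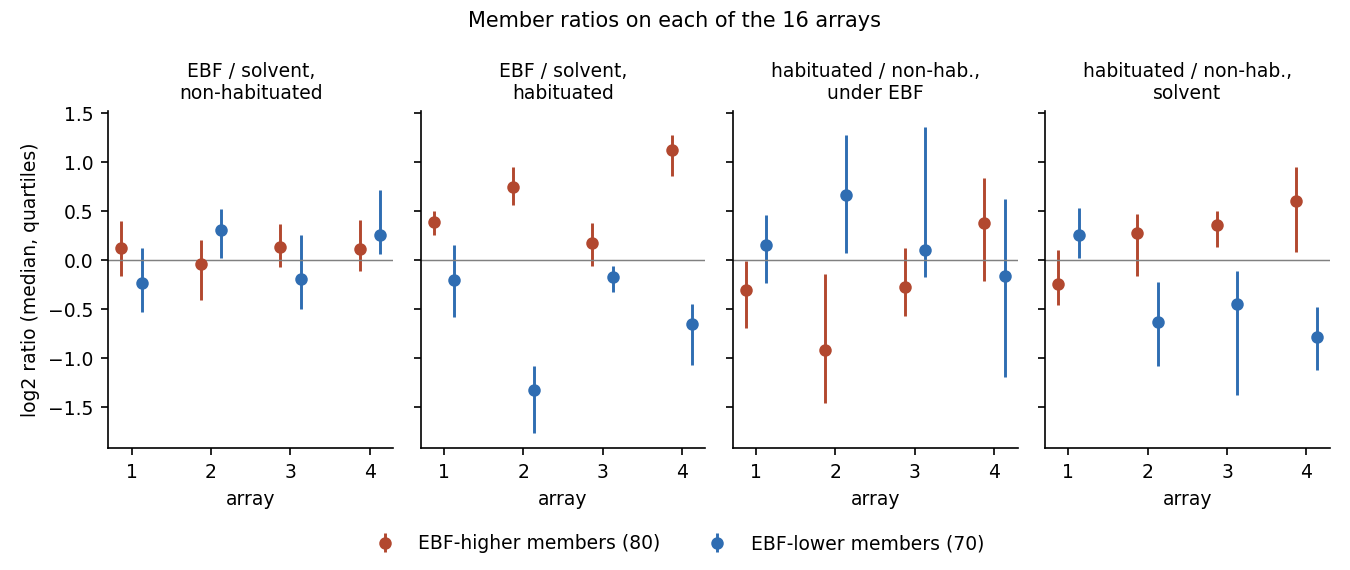
Median log2 ratio (points) and quartiles (bars) of the 80 EBF-higher and 70 EBF-lower members on each of 4 arrays, for EBF over solvent in non-habituated and habituated aphids and for habituated over non-habituated aphids under EBF and with solvent, coded by the labelled dyes. In habituated aphids, where the sets were chosen, their medians lie on opposite sides of 0 on all 4 arrays and are farthest apart on arrays 2 and 4; with solvent, array 1 has both signs exchanged.

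On arrays 2 and 4 the exposed RNA was labelled with Alexa Fluor 647, and on arrays 1 and 3 with Alexa Fluor 555. Averaged over the arrays with exposed RNA in 647, the EBF-higher members had a median of 0.90, with 80 of 80 above 0, and the EBF-lower members one of -0.99, with 0 of 70 above 0. Averaged over the arrays with exposed RNA in 555, the medians were 0.25, with 68 of 80 above 0, and -0.17, with 17 of 70 above 0. Across the 150 members the ratios of arrays 2 and 4 correlated at r = 0.90, those of arrays 1 and 3 at 0.39, and pairs of opposite dye orientation at -0.011 to 0.18. These correlations describe members that share arrays and were picked on them, and they carry no p. Over all 7223 names the same pairs gave 0.64, 0.36 and -0.18 to 0.12. The dye orientation moves with the size of the ratio here, and its part in the result was not tested.

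**Figure D2:**
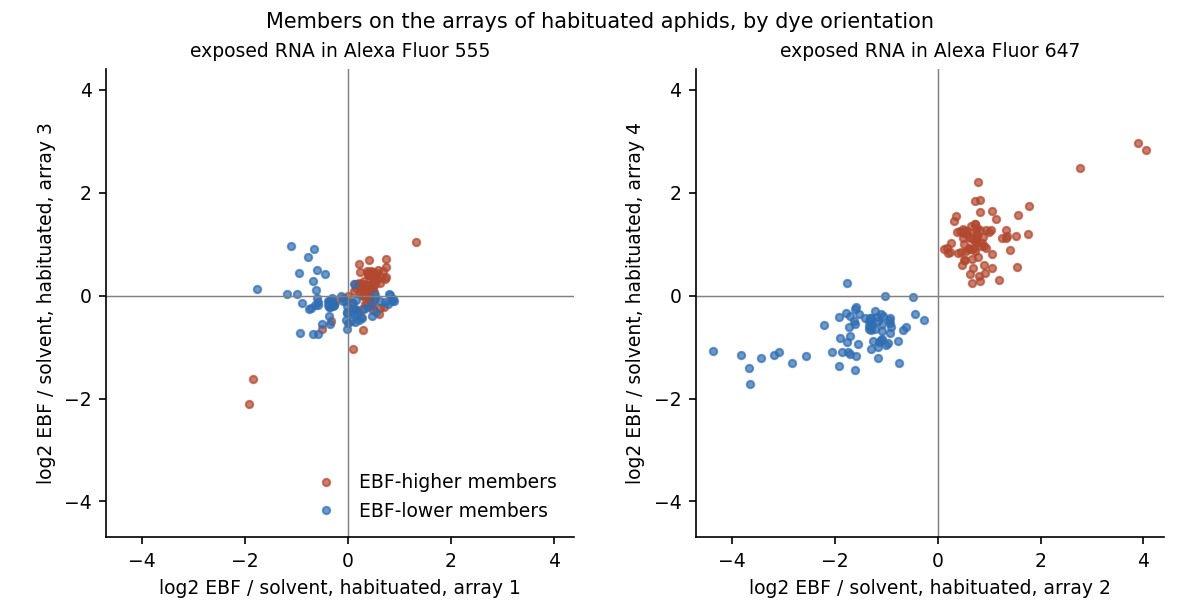
Log2 ratio of EBF over solvent in habituated aphids for each member, array 3 against array 1 (exposed RNA in Alexa Fluor 555) and array 4 against array 2 (exposed RNA in Alexa Fluor 647). The sets part fully on the right, where r over members was 0.90, and overlap on the left, where r was 0.39.

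Leaving out single arrays changed which names the rule takes. Without array 2 or array 4 of the habituated aphids it took 92 or 91 of the 150 members again, and without array 1 or 3 it took 116 or 127. Without array 2, 114 of the 150 had a mean of at least 0.3 in size, and the median of the EBF-lower members was -0.32. Without array 4 the median of the EBF-higher members was 0.42. Without array 1, 2, 3 or 4 of the non-habituated aphids, 102, 110, 120 or 90 members were taken again.

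The largest positive mean in habituated aphids belonged to contig4306. Its log2 ratios on arrays 1 to 4 were -0.49, 2.77, -0.65 and 2.49, a mean of 1.03 ± 1.85 (SD, n = 4), 2.04-fold. It was above 0 only where the exposed RNA carried Alexa Fluor 647. In non-habituated aphids the 4 arrays gave -0.15, 0.085, -0.34 and -0.39 for contig4306. The next member, contig9317, had 1.33, 0.83, 1.04 and 0.28 in habituated aphids, a mean of 0.87 ± 0.44 (SD, n = 4). It was above 0 on all 4 arrays and in both dye orientations. In non-habituated aphids it had 0.16, -0.35, 0.14 and 0.62, so the arrays of both rearings overlapped.

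The most negative mean was that of contig3427, with 0.10, -3.65, -0.14 and -1.72 on arrays 1 to 4 of habituated aphids and a mean of -1.35 ± 1.73 (SD, n = 4), 2.55-fold lower. Only 1 of its 2 probes passed the signal filter, so its values rest on that probe. The next, contig448, had 0.54, -4.36, -0.32 and -1.08, a mean of -1.30 ± 2.14 (SD, n = 4). In both, array 2 was the lowest by far and array 1 was above 0. In non-habituated aphids contig448 ranged from -1.37 on array 3 to 0.94 on array 1, and its mean of 0.025 came from values that cancelled. The same held for contig3427, with -0.26, -0.58, 0.60 and 0.50.

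Both belong to the 6 EBF-lower members past 2-fold, which had similar ratios in habituated aphids. On array 2 of habituated aphids these 6 lay between -4.36 and -3.09, on array 4 between -1.72 and -1.08, and on array 3 between -0.34 and -0.11. On array 1, 5 of the 6 were above 0. Over the 8 arrays that had no part in choosing them, the lowest correlation between any 2 of the 6 was 0.88 and the median 0.96, while the other 64 EBF-lower members had a median of 0.33. With the 4 of these arrays that compare rearings under EBF turned, for a reason given with their values, the lowest was 0.72 and the median 0.88, against 0.28. The other 64 also hold names with a like profile, so it is not particular to the 6. As labelled, contig6594 among them had rearing ratios of -0.31, 2.18, 3.39 and 0.79 under EBF and 0.46, -1.50, -2.13 and -0.75 with solvent. For contig8225, 1 of the 6, these were 0.020, 2.14, 3.44 and 0.81, and 0.28, -1.74, -2.24 and -0.76. In non-habituated aphids the 6 parted into 4 and 2. There contig448, contig255, contig254 and contig8225 were above 0 on arrays 1 and 2 and below 0 on array 3. The signs of contig3426 and contig3427 were opposite on these 3 arrays, and all 6 were above 0 on array 4. Among the 6 there are 2 pairs with consecutive contig numbers, and 4 such pairs among all 70 EBF-lower members against 1 among the 80 EBF-higher members. Such pairs were not counted over all names, so nothing is read from these counts. Whether such contigs come from 1 gene was not tested.

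In non-habituated aphids the members' small mean ratios came from arrays of both signs. The EBF-higher members had medians of 0.13, -0.041, 0.13 and 0.12 on arrays 1 to 4, and the EBF-lower members -0.23, 0.31, -0.19 and 0.26. A ratio of at least 0.3 in size occurred on 1 or more arrays in 145 of 150 members (96.7%), against 78.3% of all names. In 89 members (59.3%), 51 of them EBF-lower, 1 array was above 0.3 and another below -0.3, against 25.7% of all names. The same sign on all 4 arrays was found in 8 members, 5.33%, against 22.3% of all names; the threshold on the mean used these arrays, so nothing is read from these gaps.

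The 4 ratios of habituated aphids lay wholly above or below the 4 of non-habituated aphids in 13 of 150 members, 8.67%, of which 10 were EBF-higher and 3 EBF-lower. The share over all names was 13.4%. The rule used these 8 arrays, so both shares are a description only.

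The other 8 arrays compared the rearings directly, 4 under EBF on slide 1 and 4 with solvent on slide 2, and took no part in choosing the members. They hold RNA of the same 4 conditions, so extracts can be shared. Under EBF, habituated over non-habituated aphids, the EBF-higher members had a median of -0.27 (quartiles -0.57 to 0.11) and the EBF-lower members one of 0.12 (quartiles -0.21 to 0.53). These directions follow the dyes in the labels. In the authors' deposited table of values per array, these 4 arrays carry the opposite sign and the other 12 arrays the labelled one. For these 4, r was -0.9995 or lower with loess-normalized ratios. It was -0.95 to -0.79 with ratios of median signals that were neither normalized nor centred. With the direction of these 4 arrays turned, the medians are 0.27 and -0.12. The medians of the EBF-higher members on arrays 1 to 4 were -0.30, -0.91, -0.27 and 0.38, and those of the EBF-lower members 0.15, 0.66, 0.11 and -0.16. Array 4 thus stood on the other side of 0 in both sets. In limma, 0 of 150 members passed, as did 0 of 7223 names (0%), and 27 members and 1098 names had an unadjusted p under 0.05. Without array 2 the medians were -0.0019 and -0.016, without array 4 they were -0.47 and 0.37, and without array 3 that of the EBF-lower members was 0.046. With array weights 20 members passed, 13.3% of them, against 13.7% of all names. The medians of the EBF-higher and EBF-lower members were then -0.14 and -0.12, so both sets lay below 0. With only probes well above background on all 16 arrays, the medians were -0.16 and 0.13.

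With solvent, habituated over non-habituated aphids, the EBF-higher members had a median of 0.27 (quartiles 0.026 to 0.38) and the EBF-lower members one of -0.50 (quartiles -0.73 to -0.28). On arrays 1 to 4 the medians were -0.24, 0.28, 0.36 and 0.60 for the EBF-higher members. Those of the EBF-lower members were 0.26, -0.63, -0.44 and -0.78. On arrays 2 to 4 the sets lay on opposite sides of 0, and array 1 had both signs exchanged. The median of the EBF-higher members was 0.43 without array 1, 0.17 without array 3, 0.12 without array 4 and 0.17 with array weights. Again 0 of 150 members passed in limma, while 2 of 7223 names did (0.0277%), both lower in habituated aphids. At an unadjusted p under 0.05 there were 21 members and 443 names. With array weights 1 member passed, among 0.235% of all names. Without array 4 of the comparison under EBF, which shares the fit, 1 member passed as well, among 0.0692% of all names.

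Taken round the loop of conditions, these 8 arrays also give the difference between the EBF responses of habituated and non-habituated aphids, without the arrays used for choosing. The EBF-higher members had a median difference of -0.59 (quartiles -0.94 to -0.0029), where the arrays that chose them gave 0.51. The EBF-lower members had 0.45 (quartiles 0.036 to 1.18), where the choosing arrays gave -0.69. All names had a median of 0.015 and -0.0020 by these routes. The 2 routes use RNA of the same conditions, so the values are set side by side with no measure of likeness. In the limma fit 0 of 150 members and 0 of 7223 names (0%) passed, with a smallest adjusted p of 0.144, and 43 members (28.7%) and 878 names (12.2%) had an unadjusted p under 0.05. With the arrays under EBF turned, as in the authors' values, the medians were 0.055 and 0.22, and 7 members (4.67%) had an unadjusted p under 0.05, against 8.75% of all names. Without array 2 under EBF the median of the EBF-higher members was -0.25. That of the EBF-lower members was 0.76 without array 4 under EBF and 0.73 without array 1 with solvent, and array weights gave -0.17 and 0.19.

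**Figure D3:**
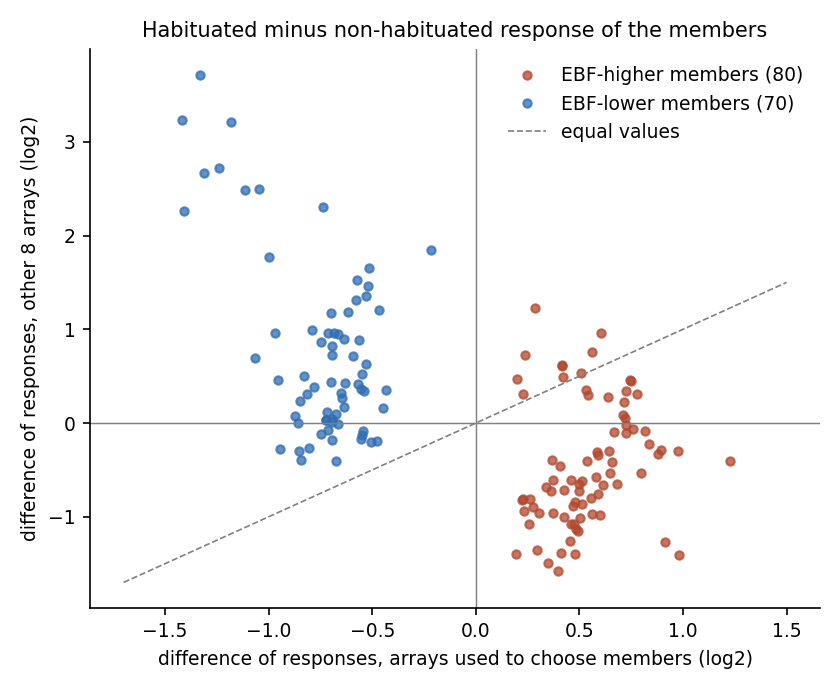
Response of habituated minus response of non-habituated aphids for each member (log2), from the 8 arrays used to choose the members (horizontal) and from the other 8 arrays (vertical), with labelled dye directions. The EBF-higher members have a median of 0.51 on the horizontal and -0.59 on the vertical axis, and the EBF-lower members -0.69 and 0.45.

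On the arrays not used for choosing, contig1531 had the smallest p among members with a positive difference of responses and contig6263 among those with a negative one. Both also had the smallest p in their direction in each comparison of rearings. These results share 1 fit, and the 2 names were picked by them, so their even signs are a description only. The EBF-lower member contig1531 was higher in habituated aphids under EBF on all 4 arrays, with 0.75, 0.88, 0.45 and 0.82, a mean of 0.72 ± 0.19 (SD, n = 4). With solvent it was lower on all 4, with -0.56, -0.50, -1.31 and -0.56. Its difference of responses was 1.46 ± 0.19 (SE; limma adjusted p = 0.144), against -0.52 on the choosing arrays. There its ratios of EBF over solvent were 0.12, -1.59, -0.35 and -0.22 in habituated and -0.64, 0.44, 0.18 and 0.067 in non-habituated aphids.

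The EBF-higher member contig6263 went the other way between rearings. Under EBF it was lower in habituated aphids on all 4 arrays, with -0.63, -1.19, -0.34 and -1.10, a mean of -0.81 ± 0.40 (SD, n = 4). With solvent it was higher on all 4, with 0.82, 0.43, 0.69 and 1.11. The difference of responses was -1.58 ± 0.22 (SE; limma adjusted p = 0.144), against 0.40 on the choosing arrays. Its ratios of EBF over solvent were 0.41, 0.35, 0.40 and 1.56 in habituated aphids and -0.47, 0.34, 0.49 and 0.76 in non-habituated aphids, which overlap. With the arrays under EBF turned, the difference was 0.0086 for contig1531 and 0.052 for contig6263.

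The members chosen for the largest ratios did not pass either. The difference of responses of contig448 was 3.72 ± 1.05 (SE; limma adjusted p = 0.218) and that of contig3427 3.24 ± 1.15 (SE; limma adjusted p = 0.328). The turned direction gave -1.27 for contig448 and 0.044 for contig3427. Under EBF, contig448 was higher in habituated aphids on all 4 arrays, with 1.03, 3.69, 4.30 and 0.94. With solvent it had 0.93, -2.40, -2.28 and -1.15, so array 1 stood apart. For contig4306 the difference was -0.41 ± 0.47 (SE; adjusted p = 0.841 in limma), and for contig9317 it was 0.34 ± 0.45 (SE; adjusted p = 0.876 in limma). Turned, these were -0.25 and 0.43.

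**Figure D4:**
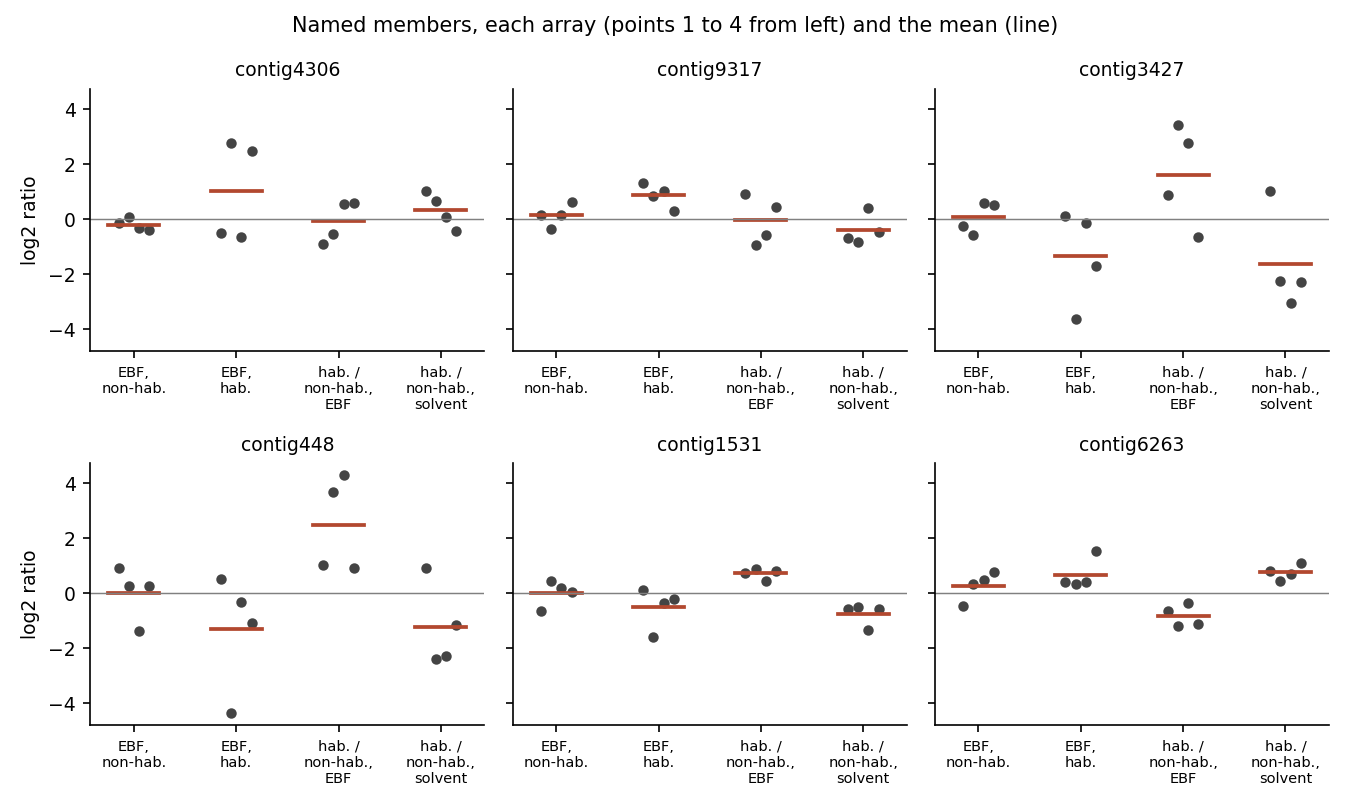
Log2 ratios of 6 members on each of the 4 arrays (points, arrays 1 to 4 from left to right) and their mean (line), for EBF over solvent in each rearing and habituated over non-habituated aphids under EBF and with solvent. For contig3427 and contig448 the arrays spread over several log2 units. The names picked by p in the rearing comparisons, contig1531 and contig6263, keep 1 sign over the 4 arrays of each.

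Between replicate arrays the members varied more than most names, also on arrays that had not chosen them. Under EBF, the median SD over 4 arrays was 0.71 in the EBF-higher and 0.88 in the EBF-lower members, against 0.40 over all names. With solvent it was 0.47 and 0.61, against 0.26. No dye effect was removed from these SDs. The dyes were exchanged on 2 of each 4 arrays, so the SDs hold dye differences of a name together with the spread between replicates. All 4 arrays shared a sign in 26 members under EBF and in 26 with solvent, 17.3% in both, against 17% and 17.2% of all names. The share with 1 sign on all 4 arrays was thus alike. At most 2 arrays had the sign of the mean under EBF in 50 of 150 members and 2342 of 7223 names. With solvent this held in 27 of 150 members and 2694 of 7223 names, so there it was rarer among members.

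**Figure D5:**
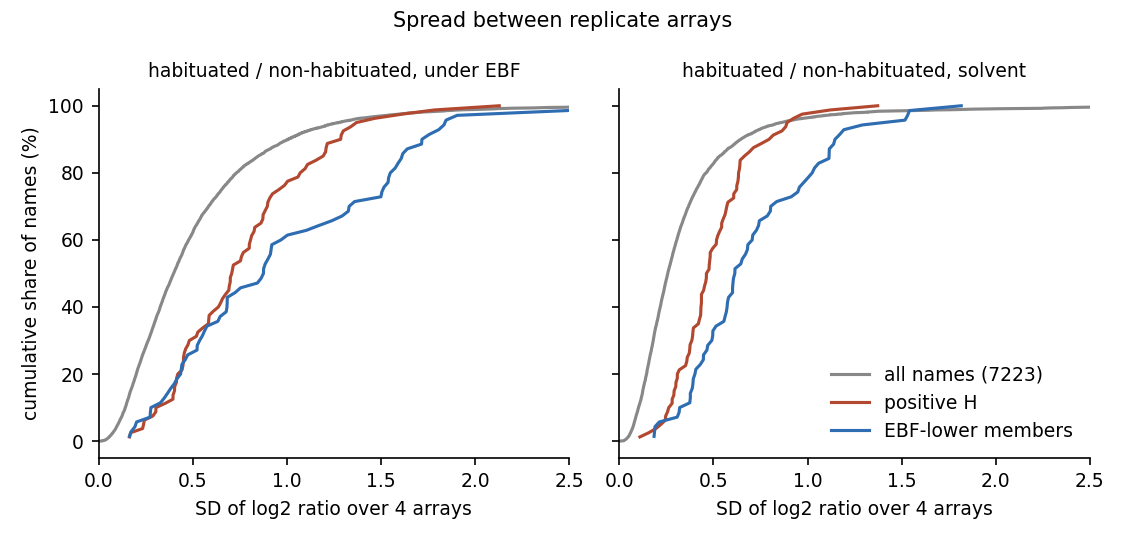
Cumulative share of names (%) by the SD of their log2 ratio over 4 arrays, for the comparisons of rearings under EBF and with solvent; the axis ends at 2.5, and a few names lie beyond. Both member sets lie to the right of the curve of all 7223 names, with medians of 0.71 and 0.88 against 0.40 under EBF and 0.47 and 0.61 against 0.26 with solvent. No dye effect was removed from the SD.

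Members of a set were correlated on the 8 arrays not used for choosing, to a degree that depends on the direction of the arrays under EBF. As labelled, pairs of EBF-higher members had a median correlation over these arrays of 0.40 and pairs of EBF-lower members one of 0.36, while pairs across the sets had -0.41 and pairs of all names -0.0028. Above 0.9 were 8.20% of the EBF-higher pairs, 6.29% of the EBF-lower pairs, 0.161% of the pairs across and 1.69% of all pairs. With the arrays under EBF turned, the medians were 0.34, 0.30, -0.27 and -0.0031, and the shares above 0.9 were 4.43%, 3.98%, 0.286% and 1.70%. These are descriptions over 8 arrays on 2 slides, which may share extracts or scans in ways the labels do not give.

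Other properties of the members were close to those of all names in some respects and apart in others. The median log2 signal was 9.25 in the EBF-higher and 10.32 in the EBF-lower members, against 10.23 over all names. A saturated probe on the arrays of habituated aphids was found in 1 EBF-higher and 5 EBF-lower members, together 4.0%, against 6.27% of all names. A spot marked as non-uniform on any of the 16 arrays was found in 5 EBF-higher and 1 EBF-lower members, together 4.0%, against 1.22%. A probe well above background on all 16 arrays was present in 116 members (77.3%), against 88.3% of names. In the 62 members with 2 passing probes, both probes gave the same sign in habituated aphids in all 62, with a median gap of 0.031, where the choice by their mean favours like signs. Over all names with 2 passing probes, 2914 of 3353 did (86.9%), with a median gap of 0.038. The 2 probes were hybridised with 1 RNA per channel on each array and do not repeat the exposure. The probes lay over the whole array, with a median row of 90.5 against 97.0 and a median column of 38.0 against 42.0.

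Sets chosen in other ways from the same ratios gave other values on the 8 arrays not used for choosing. Among names with a mean under 0.3 in size in habituated aphids, the 150 with the largest mean in non-habituated aphids were taken as the mirror set. Its 70 names lower with EBF had a median difference of responses of 1.03, where the choosing arrays gave 1.08, and its 80 names higher with EBF had -0.31, where they gave -0.98. The 445 remaining names that met the thresholds of the members had medians of -0.097 in the 178 higher and 0.076 in the 267 lower with EBF, where the choosing arrays gave 0.48 and -0.49. Turning the arrays under EBF gave 0.14 and -0.023. With labelled directions, the medians of both routes thus had the same sign in the mirror set and opposite signs in the members. With the arrays under EBF turned, the mirror set had -0.52 for its names lower and 1.15 for its names higher with EBF, so there the signs were opposite. No test of the difference between sets was made.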

How the data were processed

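The deposited scanner output gives intensity values for each spot on a linear scale; per the file headers, Agilent software (Feature Extraction, version 10.5.1.1) made it. The processed signals used here were background-corrected and dye-normalized by that software. For each array, log2 of the first over the second labelled channel was computed, the median of the 10576 passing probes was subtracted, and probes of a name were averaged. The authors' deposited table of log2 ratios per array was made with limma per the submitters' processing notes. It matched loess-normalized ratios without background correction, except for the opposite sign on the 4 arrays under EBF that compare rearings. It served as an alternative with these 4 arrays turned to the labelled direction, so that setting does not test the direction. The authors' table of means was not used. Members and lists were chosen with earlier results of these data known. Comparisons of rearings were fitted on the 8 arrays the selection had not used, with a shared dye effect (5 residual degrees of freedom), in limma 3.58.1 under R 4.3.3. Benjamini-Hochberg adjustment ran over 7223 names, with 0.05 as threshold. The fit was run on simulated data with independent normal noise, as a check that it returned the size of added differences. That check does not measure what the fit could miss in these arrays. Named members were the 2 largest in each direction in habituated aphids and, where none passed, the smallest p per direction. The names at each edge of the selection are given too. Lists of gene families could not be matched, since the files used here name no genes, and no probe sequence was used. The number of arrays limits the precision.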

Additional observations from a re-analysis of the deposited data

Results flagged for a closer look

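Among 32 sets of 4 array values checked, 3 had 1 array far from the other 3. The cutoff used flags about 1 in 20 sets of independent normal values. All sets checked belong to members chosen with these data and some share arrays, so that rate cannot be set against the count. In non-habituated aphids, the median ratio of EBF over solvent of the EBF-higher members was -0.041 on array 2 and between 0.12 and 0.13 on the others. For contig1531, habituated over non-habituated aphids with solvent, array 3 had -1.31 and the others -0.56 to -0.50. For contig6263, EBF over solvent in habituated aphids, array 4 had 1.56 and the others 0.35 to 0.41.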

How the results depend on the processing

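The count of 0 members past the threshold for the difference of responses held under all 22 alternatives run. Under EBF it was 0 except with array weights, which gave 20 (988 of 7223 names, 13.7%; weights 0.148 to 7.34, not fully converged), and with solvent array weights gave 1 (17 names, 0.235%). Leaving out single arrays gave 0 members for the difference, 0 under EBF and 0 to 1 with solvent (5 of 7223 names there, 0.0692%). Over all 7223 names, 37 passed under EBF and 1 for the difference without array 1 under EBF. Over the same 8 omissions the medians of EBF-higher and EBF-lower members ranged from -0.79 to -0.25 and from 0.37 to 0.76 for the difference, from -0.47 to -0.0019 and from -0.016 to 0.37 under EBF, and from 0.12 to 0.43 and from -0.72 to -0.35 with solvent. With the arrays under EBF turned, the median of the EBF-higher members was 0.27 under EBF and 0.055 for the difference, contig1531 had -0.72 and contig6263 0.81 under EBF, and contig6263 had 0.052 for the difference. With the solvent arrays turned, the medians were -0.27 and 0.50 with solvent and -0.055 and -0.22 for the difference, contig1531 had 0.73 and contig6263 -0.76 with solvent, and contig1531 had -0.0086 for the difference; these changes follow from the turned sign. Over 22 alternatives the adjusted p of the difference ran from 0.0796 to 0.994 for contig1531 and from 0.0881 to 0.957 for contig6263. The selection took 90 to 127 of the 150 members again without 1 array, 126 after normexp and loess, and 147 with the array median over all probes; the last setting, the omission of arrays of non-habituated aphids and the correlations and named values with turned arrays were added after seeing the data. Same-numbered arrays of both rearing comparisons deviated from their group means with r of -0.24 to -0.12, and different numbers with -0.39 to 0.39. The dye effect was removed as well, so arrays of the same dye orientation deviate by equal and opposite amounts. These correlations therefore cannot show whether the numbers pair arrays. The labels do not say so either, and the numbers were not taken to pair arrays. With the replicate number as a block, 0 members passed for the difference (smallest adjusted p 0.281), 0 under EBF and 0 with solvent. Normalization, filters and dye settings left 0 members past the threshold.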
